A study of Mus musculus with 8 samples.

Results

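The strongest accessible regions of NIH3T3 cells were taken as those with a very high peak in each of 4 ATAC-seq libraries. Overlapping peaks of the 4 deposited lists, by 1 bp or more, were joined to regions. Regions were then chosen by the −log10 p of their peaks: an autosomal region under 8000 bp wide was kept when each library had in it a peak among the 600 with the largest −log10 p of its own list. This left 438 regions of 45915 in all, and of 27768 that had a peak in every library. Their height, p-value and rank chose them, so these values are given as a description and were not tested against other regions.

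The libraries came from NIH3T3 cells cultured for 24 h on G2 (2 libraries) or on G128 (2 libraries), in a series on hydrogels of polyvinyl alcohol and gelatin and cell adhesion. The labels do not say what G2 and G128 stand for, and no allele or other agent is named. NIH3T3 is an immortalised fibroblast line from mouse embryos whose chromosome number is known to be abnormal, and all 4 libraries share this background. Nothing in the labels says that the libraries of a group came from separate cultures, so the spread between these libraries may be technical. The limma p-values and standard errors (SE) given below also rest in part on a spread modelled over all regions. They therefore do not measure the spread of a single region alone. RNA-seq, with 4 libraries in the labels, was not analysed here.

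In ATAC-seq, the Tn5 transposase cuts where DNA is free of nucleosomes, and reads pile up over such places. Promoters of broadly used genes and distal elements bound by transcription factors are the usual strong sites of a cell type. Reference assemblies also hold some repeats in fewer copies than cells do, and copies of mitochondrial DNA lie within nuclear chromosomes, so that peak lists can hold very high pileups at such places. Which regions here belong to which of these kinds was not analysed, because the lists are on build mm9 and the gene tables and promoter sequences at hand are on GRCm38. The regions are therefore named by their mm9 position, without genes or sequence, and the fibroblast origin was not checked against marker genes. That they are open rests on peak height alone.

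Heights are given as the number of overlapping intervals at the summit divided by the mean of the caller's background in that library, both recovered from the deposited p-values. The background mean was 1.10 and 1.37 intervals per bp in G2 replicates 1 and 2, and 1.05 and 1.41 in G128 replicates 1 and 2. A summit at rank 600 stood at 398 and 400 times the background in the G2 libraries and at 285 and 331 times in the G128 libraries. In pileup these were 438 and 547 intervals in the G2 libraries and 300 and 467 in the G128 libraries. By its background mean, G128 replicate 1 was the shallowest library. Intervals from PCR reads are not independent molecules.

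The 600 strongest peaks of the libraries lay largely in the same regions. They touched 779 regions in all, of which 441 (56.6%) were reached by all 4 libraries and 144 by a single library. Between the G2 libraries, 526 regions were common, which is 87.7% and 87.8% of their strongest regions. Between the G128 libraries 496 were common (82.7% of each), and the 4 pairs across the groups had 499 to 513 in common (83.2 to 85.5% of each list). The G2 pair thus overlapped most and the G128 pair least, with the pairs across the groups between them. Only 13 regions were reached by both G2 libraries alone and 24 by both G128 libraries alone. Of the 441 regions, 3 were left out by the limits on width and chromosome.

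The median height of the 438 regions was 497 times the background in each G2 library, against 357 and 415 times in the G128 libraries. The G2 mean of these medians was 497.0 ± 0.208 and the G128 mean 386 ± 41.1 (SD over 2 libraries each), so that G2 was 1.29 times as high. Over all 27768 regions with a peak in every library the same ratio was 1.25, from medians of 67.3 and 68.7 times on G2 and 50.3 and 58.1 times on G128. The strongest regions were thus higher on G2 by about as much as regions in general. To compare regions against this common shift, which was 0.33 on the log2 scale, each library's median over the 27768 regions was subtracted from its log2 heights. After this centring the regions' medians were 2.88 and 2.85 in the G2 libraries and 2.83 and 2.84 in the G128 libraries. The difference was 0.04 (log2, G2 minus G128), and 0.37 before centring. A two-sided exact permutation test over the 6 ways to assign 2 libraries to each group cannot give a p below 0.33, the value it gave both before and after centring, so it could not have passed the threshold and nothing is read from it.

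Heights decreased steeply over the first 20 regions and slowly after that, as the plot of heights by place shows. The range was from 399 to 3047 times the background in G2 replicate 1 and from 285 to 3432 times in G128 replicate 1. The quartiles of the regions were 455 and 561 times in G2 replicate 1, and 322 and 411 times in G128 replicate 1. Across the 438 regions, the Spearman correlation of heights was 0.88 between the G2 libraries, 0.84 between the G128 libraries and 0.76 to 0.83 across the groups. The points share libraries and depth, and the choice by rank narrows their range, so these correlations only describe the set.

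**Figure D1:**
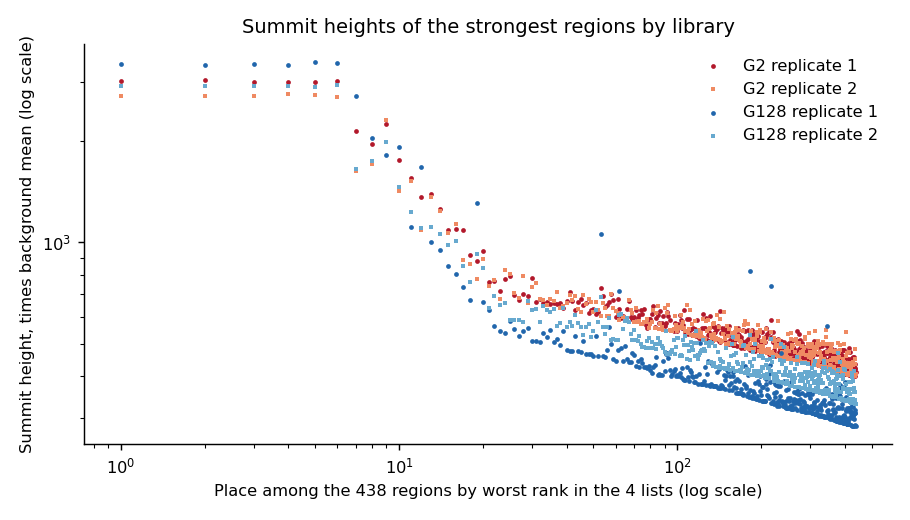
Summit height of each of the 438 regions in each library, in times the background mean (log scale), against the region's place by its worst rank in the 4 lists (log scale); each point is 1 region in 1 library. The first 6 regions lie at one level in each library, between 2704 and 3432 times the background. From about place 20 on, most G128 replicate 1 points run below those of the other libraries.

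The 6 highest regions had almost the same summit in each library. In G2 replicate 1 they held 3283 to 3350 intervals, a range of 2.04% of the lowest, and in G2 replicate 2 they held 3701 to 3779 (2.11%). In G128 replicate 1 they held 3548 to 3618 intervals (1.97%) and in G128 replicate 2 they held 4100 to 4139 (0.951%). The highest of the other 432 regions was clearly below this level, with 2463 and 3152 intervals in the G2 libraries and 2867 and 2798 in the G128 libraries. The 6 regions lay on 5 chromosomes, at chr1:24618318-24623076, chr2:22442766-22446104, chr2:98506343-98507538, chr4:79648184-79651160, chr12:98299586-98300055 and chr13:85266116-85267174. They ranged in width from 470 to 4759 bp, so the summits were close while the widths were not.

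Replicates also related to each other differently at these 6 regions. The pileup of replicate 2 over that of replicate 1 had a median of 1.13 on G2 and of 1.15 on G128 among the 6. Among the other 432 regions it was 1.23 on G2 and 1.57 on G128, close to the 1.26 and 1.54 over all regions with a peak in every library. The 6 regions therefore grew less from the shallower to the deeper library than regions in general. The first of them, on chromosome 1, stood at 3009 and 2718 times the background in the G2 libraries and at 3385 and 2923 times in the G128 libraries. The shallower library of each group gave the higher value, and G128 replicate 1, in which most regions were lowest, gave the highest. The part of depth in this was not tested.

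The next 4 regions were of both kinds. At chr10:95540105-95540581, 477 bp wide, heights were 2140 and 1632 times the background in the G2 libraries and 2719 and 1654 times in the G128 libraries. At chr6:9839845-9840247, 403 bp wide, they were 1962 and 1707 times in the G2 libraries and 2040 and 1748 times in the G128 libraries. Both regions were highest in G128 replicate 1, as the first 6 were, and in both the groups overlapped before centring. In contrast, chr17:39979887-39985827, the widest of all with 5941 bp, reached 2240 and 2303 times in the G2 libraries and 1822 and 1982 times in the G128 libraries, with the G2 libraries above the G128 libraries. After centring its difference was −0.07 (limma adjusted p = 0.669), with the G2 libraries slightly below. The tenth, chr6:79767896-79768396, stood at 1757 and 1425 times in the G2 libraries and at 1918 and 1460 times in the G128 libraries. It was also highest in G128 replicate 1, and the groups overlapped there too.

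At the lower end the choice was between near-equal regions. The last 5 inside the limit had worst ranks of 594 to 600, and the first 5 outside it 601 to 606. The last inside, chr19:60949626-60950651, stood at 411 and 406 times the background in the G2 libraries and at 285 and 331 times in the G128 libraries. The other 4 inside were chr16:58408087-58408734, chr5:150438167-150439516, chr15:81957827-81959028 and chr13:54794742-54796208. Among the first outside, chr16:4586253-4587252 stood at 434 and 412 times in the G2 libraries and at 306 and 331 times in the G128 libraries, and chr11:74643157-74644589 at 423 and 474 times and at 284 and 441 times. The others were chr19:45856986-45858705, chr5:24190448-24191912 and chr15:32850121-32851511. The limit thus separates no class of regions. Ranking by the deposited signal in place of the −log10 p gave 441 regions, of which 198 were among the 438, so the set depends on the column ranked. The next 438 autosomal regions by worst rank are used below for comparison.

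Between G2 and G128, 17 or 0 of the strongest regions passed the test, depending on how limma modelled the spread. Limma was run on the centred log2 heights of all 27768 regions, with a Benjamini-Hochberg adjusted p of 0.05. With a constant prior variance, which was fitted first, it called 0 of the 438 regions and 0 of all regions. With a prior variance that follows the height, it called 17 of the 438 lower on G2 and 0 higher. This model was adopted after the first result was known, because an earlier processing of these data used it. The tools named in the submitters' notes do not include limma. The counts and p-values below are from the second model. Of the 17 regions, 15 were under 700 bp wide or among the 6 highest. The background was 0.864% of all regions called lower and 0.601% called higher, against 3.88% and 0 of the strongest regions. At an unadjusted p of 0.05, limma gave 31 of the 438 lower and 11 higher, where the background was 7.61% lower and 7.39% higher, so that the share lower was near the background and the share higher was under it. Of the 17, 6 were the highest regions described above and 10 were under 700 bp wide, 1 of them in both classes. The rule asks for a high rank on both G2 and G128 and so limits how far a region in the set can differ.

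The calls also rest on the scaling and on single libraries. Where a library was left out, its group was a single library with no spread of its own. Calls from those fits rest on the other group's spread and on the spread modelled over all regions, so their counts only describe. Without centring, limma called 181 of the 438 regions higher on G2 and 1 lower, where the background was 26.6% higher and 0.22% lower. With quantile normalization 3 were called lower and 0 higher, where the background was 0.277% lower and 0.155% higher. With the constant prior variance the lowest limma adjusted p in the set was 0.173, and 13 of the 438 were lower and 0 higher at an unadjusted p of 0.05. The background for these was 8.67% lower and 5.57% higher, so both shares of the strongest regions were under it. Without G2 replicate 2, 3 of the 438 were called lower, where the background was 0.169%. Without G128 replicate 1 it was 8, with a background of 0.738%. Without G2 replicate 1 it was 16 (background 0.346%), and without G128 replicate 2 it was 20 (background 1.56%). In these 4 fits 0 of the 438 were called higher. The background of higher calls was 0.0576% without G2 replicate 2, 1.53% without G128 replicate 1, 0.0792% without G2 replicate 1 and 1.58% without G128 replicate 2. Of the 17, 14 had a value below 0 in each of the 9 alternatives, and each was called in 3 to 8 of them.

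The largest difference was at chr9:35112752-35113226, 475 bp wide. It stood at 878 and 777 times the background in the G2 libraries and at 1309 and 925 times in the G128 libraries. Both G2 libraries lay below both G128 libraries even before centring, and the G128 libraries differed most from each other. The centred log2 difference was −0.75 (limma SE 0.11), with a limma adjusted p of 0.000158. This SE is not the spread of this region's own libraries. Over the 9 alternatives tried, the difference ranged from −1.10 to −0.39. With a constant prior variance the limma adjusted p was 0.173. Without G128 replicate 1, which left a single G128 library, the difference was −0.39. The pileups, before division by the background, were 965 and 1063 intervals on G2 and 1380 and 1305 on G128.

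The narrowest of all, chr6:103598999-103599331 with 333 bp, stood at 537 and 482 times the background in the G2 libraries and at 823 and 529 times in the G128 libraries. Its centred difference was −0.71 (SE 0.13, limma adjusted p = 0.00132). Here G128 replicate 2 was close to the G2 libraries and G128 replicate 1 stood apart. A similar pattern was seen at chr2:98502340-98503187, 848 bp wide, with 730 and 604 times on G2 and 1061 and 689 times on G128. Its difference was −0.70 (SE 0.13, limma adjusted p = 0.00141). At chr5:7276684-7277349, 666 bp wide, heights were 586 and 467 times on G2 and 743 and 515 times on G128, with a difference of −0.57 (SE 0.12, limma adjusted p = 0.00989). Each of these regions was highest in G128 replicate 1, the shallowest library. Without that library, which left a single G128 library, the differences were −0.28, −0.28 and −0.20. The region on chromosome 10 at 95540105 followed with −0.51 (SE 0.13, limma adjusted p = 0.032), where the centred values of the groups overlapped. Without G128 replicate 1 its difference was −0.05, and without G2 replicate 2 it was −0.30.

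The 6 highest regions differed by −0.48 to −0.45, with limma adjusted p-values of 0.00104 to 0.00168. In all 6 both G2 libraries lay below both G128 libraries after centring, where the background was 21.9% of all regions. Their summits were almost equal within each library, so the 6 are not taken as separate observations. Before centring the groups overlapped in all 6, and the differences were −0.15 to −0.12, with limma adjusted p-values of 0.440 to 0.536. Quantile normalization, which gives the top ranks of every library the same values, left differences between −0.01 and 0.01 in these 6 regions. The remaining called regions were chr5:60433908-60434382, chr10:84488666-84489135, chr18:65279220-65279700, the regions on chromosome 6 at 79767896 and at 9839845, and chr6:47604314-47606383. The last belonged to a row of similar regions described below. Differences in these 6 lay between −0.49 and −0.38. Without centring they lay between −0.15 and −0.05, with limma adjusted p-values of 0.419 to 0.824.

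Narrow regions in particular lay below 0, as the plot of the difference against width shows. Of the 17 regions under 700 bp, 15 had a negative centred difference, with a median of −0.41, and 10 were called lower. Of the 421 wider regions 158 had a negative difference, with a median of 0.03, and 7 were called lower. The widest also leaned below 0. Of the 67 regions of 2000 bp or more, 39 (58.2%) had a negative difference, with a median of −0.03, and 4 were called lower. Among all regions of this width with a peak in every library, 41.1% were negative and 2.01% were called lower. Without the 6 highest, 16 narrow regions remained, 9 of them called lower, with a median of −0.39. The 2 narrow regions with positive values were chr5:147072517-147072990 at 0.10 and chr16:58408087-58408734 at 0.08, and neither was called. Among all 15766 regions under 700 bp with a peak in every library, 8895 (56.4%) had a negative difference, 158 (1.00%) were called lower, and the median was −0.04. The limit of 700 bp was chosen after these values had been seen, so no test was made.

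**Figure D2:**
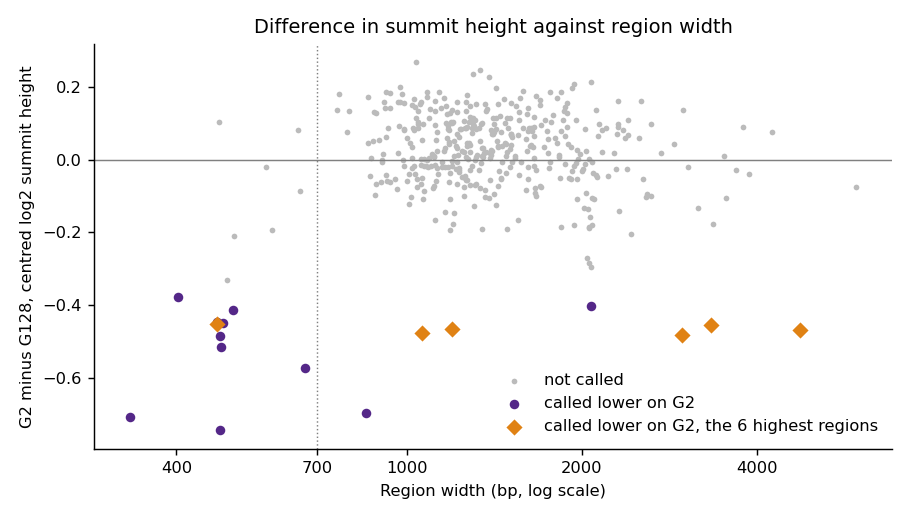
Centred log2 summit height on G2 minus that on G128 for each of the 438 regions, against region width in bp (log scale); purple points and orange diamonds are regions called lower on G2 by limma, and grey points were not called. Of the 17 regions left of the dotted line at 700 bp, 15 lie below 0, while the wider regions centre on 0.03 with the 6 highest regions at −0.48 to −0.45 as diamonds, 1 of them narrow.

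The median replicate ratio of the narrow regions in the set was close to that of the 6 highest, though not every narrow region had such a ratio. Their pileup in replicate 2 over that in replicate 1 had a median of 1.12 on G2 and 1.15 on G128, against 1.23 and 1.57 in the wider ones. This ratio and the centred difference come from the same pileups, so the ratio is not separate support for the difference. Narrow width was rare at this height. It was found in 3.88% of the 438 regions and in 6 (1.37%) of the next 438, against 56.8% of all regions with a peak in every library. The 6 narrow regions of the next 438 had a median difference of −0.47, and 3 of them were called lower. The background of lower calls was 1.37% of the next 438 and 1.00% of all regions under 700 bp. Lower values at narrow regions were thus not particular to the 438. These are only 6 regions, and the limit of 700 bp was chosen on these data, so no more is read from them.

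No strong region was called higher on G2. The largest positive centred differences were 0.27 at chr19:45437829-45438863, 0.25 at chr1:7078299-7079634, 0.24 at chr15:75446256-75447554, 0.23 at chr4:129317271-129318654 and 0.22 at chr17:17760674-17762743. Their limma adjusted p-values were 0.145 to 0.269. The first of them stood at 478 and 500 times the background in the G2 libraries and at 306 and 339 times in the G128 libraries. The G2 libraries were both above the G128 libraries in 131 of the 438 regions (29.9%) after centring, where the background was 23.8% of all regions. They lay below in 70 (16.0%), where the background was 21.9%. Among all regions of 700 bp or more with a peak in every library, 30.3% lay above and 14.8% below. Among the next 438 regions the shares were 33.1% and 7.31%. The shares of the strongest regions were thus near those of wide regions in general. The median centred difference was 0.02 in the 438 regions, 0.05 in the next 438 and 0.01 over all regions.

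The strongest regions were wide. Their median width was 1336 bp, with 10% under 934 bp and 10% over 2115 bp, against a median of 627 bp over all regions with a peak in every library. Width was not used by the rule beyond the limit of 8000 bp, but it moves with height, and its independence from height was not tested. The next 438 regions had a median of 1294.5 bp. After chr17:39979887-39985827 and the region on chromosome 1 at 24618318, the next widest was chr4:94716459-94720707 with 4249 bp, which stood at 456 and 458 times the background on G2 and at 304 and 390 times on G128. The narrowest after chr6:103598999-103599331 and chr6:9839845-9840247 was chr10:84488666-84489135 with 470 bp.

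Covered width did not pass the test in any of the 438 regions. The median covered width was 1221 and 1298 bp in the G2 libraries and 1155.5 and 1249 bp in the G128 libraries. After centring on the median of all regions the median difference (G2 minus G128) was −0.18 on the log2 scale, and 407 of the 438 regions (92.9%) were negative. Of the next 438 regions 392 (89.5%) were negative, and of all regions 17473 (62.9%). Without centring the median was 0.06. The sign thus turned with the centring, and covered width over all regions was larger on G2 by 0.24. Limma called 0 of the 438 regions wider and 0 narrower, with backgrounds of 0.331% and 0.0396%. At an unadjusted p of 0.05 it gave 0 wider and 34 narrower, where the background was 6.18% wider and 3.86% narrower. With a constant prior variance it also called 0 of the 438 (background 0.0144% wider and 0 narrower), with 0 wider and 1 narrower at an unadjusted p of 0.05 (background 5.81% and 2.66%). Without G128 replicate 2, 1 was called wider and 25 narrower, where the background was 7.07% wider and 2.52% narrower. Without G128 replicate 1, 1 was called wider and 0 narrower (background 3.66% and 1.3%), and the median was −0.10. Leaving out G2 replicate 1 (background 0.897% wider and 0.209% narrower) or G2 replicate 2 (0.681% and 0.285%) gave 0 calls in the set. The lowest centred values were −0.53 at chr15:81957827-81959028 (limma adjusted p = 0.133), −0.39 at chr4:62180327-62181508 and −0.37 at chr6:47717078-47718934. The highest were 0.28 at chr5:123843936-123845387, 0.25 at chr8:73362671-73364222 and 0.22 at chr5:136019868-136021821.

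Summits fell at nearly the same base in all libraries. The 4 summits of a region lay within a median of 9 bp, and within 10 bp in 241 regions (55.0%), against a median of 40 bp and a share of 19.5% over all regions with a peak in every library. In 50 regions the 4 summits were at the same base. The next 438 regions had a median of 11 bp and a share of 47.9%, close to those of the strongest. Between 2 libraries the median distance was 2 bp within G2, 3.5 bp within G128, and 2 to 4 bp across the groups. The distances across the groups were thus no larger than those within G128 by more than 0.5 bp. Summit height differs between these sets, and its part was not tested.

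**Figure D3:**
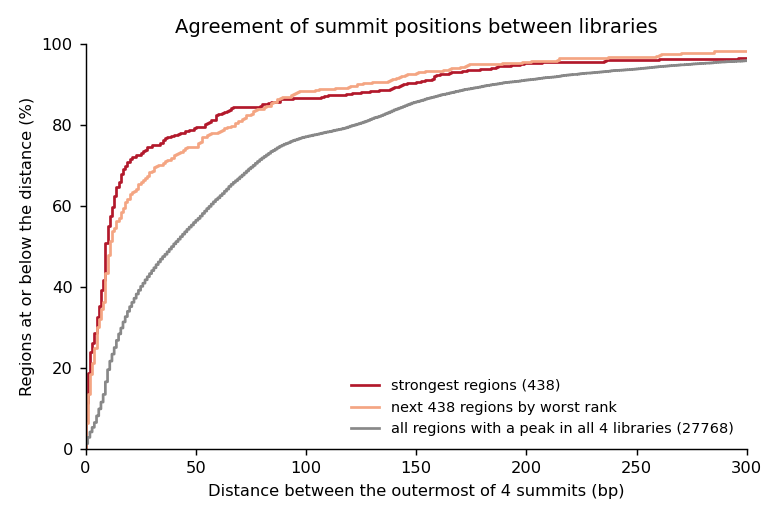
Cumulative share of regions, in percent, against the distance in bp between the outermost of the 4 libraries' summits, for the 438 strongest regions, the next 438 and all 27768 regions with a peak in every library; distances above 300 bp are not drawn. At 10 bp the strongest regions have reached 55.0%, the next 438 have reached 47.9% and all regions 19.5%.

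In 41 of the 438 regions the summits were more than 150 bp apart. The farthest were in the region on chromosome 1 at 24618318, with 4223 bp between the outermost summits, and in chr17:39979887-39985827, with 3130 bp. In the region on chromosome 17, 3 libraries had the same summit base and G128 replicate 2 another. Of the 6 highest regions, the one on chromosome 12 had summits within 7 bp, and the others were 129 to 4223 bp apart. Most regions were a single peak in each library, 348 of 438 (79.5%), as over all regions with a peak in every library (83.8%). Regions split into more than 1 peak numbered 43 and 14 in G2 replicates 1 and 2, and 55 and 48 in G128 replicates 1 and 2.

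Strong regions were spread over all 19 autosomes but unevenly. Per 1000 regions with a peak in every library, there were 16.0 over all autosomes, 28.3 on chromosome 17, 24.1 on chromosome 15 and 23.7 on chromosome 19. At the other end there were 3.71 on chromosome 14, 4.29 on chromosome 13, 5.92 on chromosome 18 and 6.12 on chromosome 9. In counts, chromosome 11 held the most with 44 and chromosome 14 the fewest with 3. The same 4 chromosomes were lowest for the next 438 regions, with 3.71 to 4.59 per 1000, as the bars by chromosome show. The median height of all regions of a chromosome was 54.2 and 53.4 times the background on chromosomes 14 and 13, and 63.1 times on chromosome 17. Chromosome 9, with few strong regions, was at 61.7 times, above chromosome 15 at 60.8 times, which had many. Over the 19 chromosomes, the Spearman correlation between this median and the share of strong regions was 0.49. Both values come from the same libraries and the median includes the strong regions, so this is a description. The number of copies of each chromosome was not measured here, and its part was not tested.

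**Figure D4:**
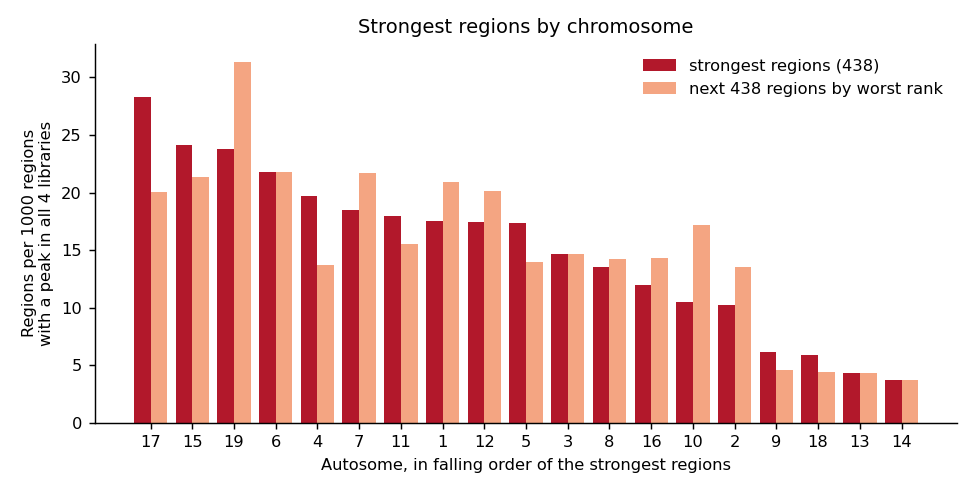
Number of regions per 1000 regions with a peak in all 4 libraries, for each autosome in falling order of the 438 strongest regions (dark bars), with the next 438 regions by worst rank beside them (light bars). Chromosomes 9, 18, 13 and 14 hold 3.71 to 6.12 strong regions per 1000, while chromosomes 17, 15 and 19 hold 23.7 to 28.3.

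Strong regions lay farther from the next region than regions in general did, but had slightly more regions in the wider surroundings. The median distance to the next region with a peak in every library was 12719.5 bp, against 7942 bp over all such autosomal regions, and 187 of 438 (42.7%) had another within 10 kb, against 53.5%. Counting regions found in any library, the median distance was 5269 bp. Within 500 kb lay a median of 28 regions outside the set, against 23 around all regions. The part of region width in these values was not tested. The surroundings were slightly higher. In the same window, the median height of the regions outside the set was 65.1 times the background around strong regions and 60.1 times around all regions, each where at least 5 such regions were present. In the first 5 Mb of a chromosome lay 13 of the 438 (2.97%), against 1.99% of all. For the next 438 regions the median distance to the next region was 9723 bp, and 48.6% had another within 10 kb. Within 500 kb of them lay a median of 27.5 other regions, with a median height of 63.3 times the background. Of the next 438, 3.42% lay in the first 5 Mb. These traits were thus not particular to the strongest regions. Linking strong regions up to 60 kb apart gave 19 groups holding 53 of them, and 14 of these groups were pairs. The nearest pair, chr8:11554843-11556608 and chr8:11557081-11558745, lay 472 bp apart.

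The largest group was a row of 13 strong regions on chromosome 6. Within it, 17 regions of at least 1500 bp followed each other between positions 47600090 and 47723252, and 12 of these were among the 438. Their widths were 1623 to 2428 bp, with a median of 2057 bp, and 14 of the 17 were between 1900 and 2100 bp wide. Apart from 1 gap of 54578 bp, the step from one start to the next was 4224 to 5532 bp, and 11 of the 15 steps were between 4200 and 4400 bp. The first stretch, of 9 regions, was the more regular, with widths of 2011 to 2096 bp and all 8 steps between 4224 and 4344 bp. In the second, of 8 regions, widths were 1623 to 2428 bp and 3 of 7 steps were between 4200 and 4400 bp. Narrower regions with a peak in every library also lay in the span of the group, which held 28 such regions in all. The 5 of the 17 outside the set had worst ranks of 608, 632, 685, 817 and 993. Among the pairs of strong regions nearest each other, 4 of the first 5 were neighbours in this row, with gaps of 2163 to 2302 bp.

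In each library the same 6 regions of the row stood above its other regions. These 6, which include chr6:47693463-47695519, had G2 values of 610 to 690 times the background. The region named stood at 690 and 660 times in the G2 libraries and at 558 and 670 times in the G128 libraries, where the groups overlapped before centring. Most regions of the first stretch stood near 400 times in every library. There, chr6:47604314-47606383 reached 413 and 414 times on G2 and 402 and 469 times on G128, and was called lower on G2 with a centred difference of −0.40 (SE 0.09, limma adjusted p = 0.0169). In the row as a whole 15 of 17 centred differences were negative, with a median of −0.21, and 3 were called lower. The background was 47.8% negative and 0.864% called lower over all regions. Among all regions of 2000 bp or more it was 41.1% and 2.01%. The other called regions, chr6:47625906-47627996 and chr6:47630233-47632328, lay outside the 438. The last 2 regions of the row had positive values of 0.11 and 0.09. Whether the 17 share sequence or reads was not tested, and the sources do not state how reads with several matching places were counted, so they are not taken as 17 independent observations.

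**Figure D5:**
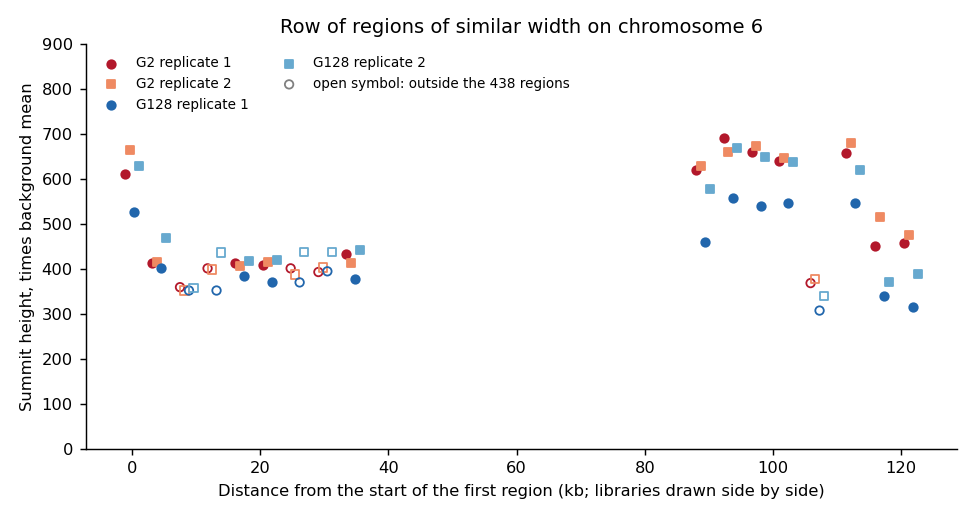
Summit height in times the background mean against distance in kb from the start of the first region of the row on chromosome 6, for the 17 regions of at least 1500 bp; the 4 libraries are drawn side by side, and open symbols are the 5 regions outside the 438. Apart from the first region, regions of the first stretch lie at 352 to 469 times the background, and the second stretch rises to 690 times in G2 replicate 1.

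Other very high regions lay farther apart on chromosome 8 and in a group of 3 on chromosome 11. On chromosome 8, chr8:19783992-19785646 stood at 1549 and 1523 times the background in the G2 libraries and at 1107 and 1230 times in the G128 libraries. On the same chromosome, chr8:20019175-20020972 stood at 1392 and 1366 times on G2 and at 999 and 1107 times on G128. Another between them, chr8:19891888-19893730, had 702 and 792 times on G2 and 543 and 580 times on G128. All 3 were 1655 to 1843 bp wide, and their centred differences were 0.06 to 0.08, none called. Unlike the narrow regions, they were higher on G2 by about the common shift. At the start of chromosome 11, 3 strong regions lay between 3023212 and 3094870, led by chr11:3091822-3094870 with 1255 and 1235 times on G2 and 949 and 1062 times on G128. Their centred differences were −0.10 to −0.02, none called.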

How the data were processed

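ATAC-seq peak lists of 4 NIH3T3 libraries, 2 on G2 and 2 on G128, were used; groups and replicate numbers came from the sample titles. Per the submitters' processing notes, peaks come from a workflow on build mm9 that names Genrich 0.5, deepTools, SAMtools 1.7 and Bowtie2 2.2.5, with no order given. Their settings, read shifting and the treatment of duplicates, mitochondrial reads and repeats are not given in the sources used here, so heights at repeats may depend on them.

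The lists deposited by the authors, called per library, hold a score, a signal and −log10 p-values and q-values for each peak. The deposited score was not used, and the deposited signal served only in alternatives. In each list the deposited −log10 p-values took the values of whole pileups on a log-normal background, within 0.00179 of a whole number. The deposited position of the summit, in bp from the peak start (other unit), gave its base.

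The best-ranked peak of a library gave its summit in a region. Log2 heights were centred on each library's median and tested with limma 3.58.1 in R 4.3.3, with Benjamini-Hochberg adjustment over 27768 regions. The design named limma with empirical Bayes and did not mention a variance trend. The constant prior variance was fitted first and called none. The prior variance following the mean was then adopted for the values given, as in an earlier processing of these data. The submitters' notes do not name limma. The number of calls thus rests on a choice made with both results known. Recovery and fit were tested on simulated data. Python 3.11.15, numpy 2.4.6, pandas 2.3.3 and scipy 1.17.1 were used. Alternatives concerned the rank limit, overlap, scaling, filters, block, variance model and libraries. Omission of a library left its group with a single library, so calls from those fits are a description, for height and for covered width.

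Regions named were the 10 with the best worst rank, the 5 on each side of the limit, the 5 with the largest height differences in each direction, the 3 extremes of width and of covered-width difference, and the 5 nearest pairs. All other regions called, the chromosome 6 row and the regions of chromosomes 8 and 11 were added after their values were seen. The regions, lists and tests were chosen with earlier results of these data known.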

Additional observations from a re-analysis of the deposited data

How the results depend on the processing

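Using both variance models was not planned, and the trended one was adopted after the constant prior variance had called none. All further alternatives were planned. Promoter-distance and sequence-window alternatives were not run, since no mm9 annotation or sequence was used here. A rank limit of 300 gave 205 regions and one of 1000 gave 760, by construction. The other alternatives gave 434 to 475 regions. These numbers do not say which regions: ranking by the deposited signal gave 441, of which 198 were among the 438.

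For height, all regions called higher and lower on G2 numbered 7384 and 61 without centring, 43 and 77 with quantile normalization, 62 and 75 among regions above the median height, and 0 and 0 with a constant prior variance, where 3955 regions had an unadjusted p under 0.05. Called lower among the strongest regions were 1 without centring (181 higher), 3 with quantile normalization, 12 among regions above the median height and 0 with a constant prior variance. Over all regions, omission of single libraries left 16 to 438 called higher and 47 to 434 called lower, and among the strongest 3 to 20 lower. Quantile normalization turned chr2:22442766-22446104 and chr12:98299586-98300055 to 0.011 each. The cause of these changes was not tested.

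For covered width, all regions called wider and narrower numbered 0 and 0 without centring, with quantile normalization and with the replicate block, 255 and 92 among regions above the median width, and 4 and 0 with a constant prior variance. Omission of single libraries left 189 to 1964 wider and 58 to 700 narrower, and among the strongest regions 0 to 1 wider and 0 to 25 narrower. The filter on width gave 1 narrower strong region. The median difference of the strongest regions was 0.056 without centring, which leaves the common shift in.

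With the replicate number as a block, 230 regions were called higher and 382 lower in height, and 17 of the strongest lower, as without it. The numbers were not shown to pair libraries, since deviations of same-numbered libraries correlated at 0.00279 over all regions and at 0.155 over the 438 strongest.

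The median distance between outermost summits was 14 bp when the mean position of a library's peaks was used, against 9 bp. The median distance to the next region was 5269 bp when regions of any library counted, since more regions then count.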

Other observations

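The 3 regions that met the rank limit in all libraries but were left out by width or chromosome are given here as values. The region chrX:166426791-166447096, 20306 bp wide, stood at 1409 and 1478 times the background in the G2 libraries and at 979 and 1025 times in the G128 libraries. Beside it, chrX:166423831-166425830 stood at 979 and 902 times on G2 and at 665 and 776 times on G128. Neither was called by limma after centring, with adjusted p-values of 0.218 and 0.797. The region chr9:2999951-3038445, 38495 bp wide, stood at 791 and 684 times on G2 and at 1323 and 875 times on G128, a centred log2 difference of −0.88 (SE 0.12, limma adjusted p = 4.76e-05). It was thus lower on G2 and highest in G128 replicate 1, as most narrow regions of the set were.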
